A study of Mus musculus with 2 samples.

Results

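The genes described here encode 9 transcription factors that mark or specify the first-born neurons of the embryonic nervous system. They are the LIM-homeobox genes Isl1, Lhx1 and Lhx5, the POU gene Pou4f1, the Onecut gene Onecut2, the early B cell factor genes Ebf1, Ebf2 and Ebf3, and the basic helix-loop-helix (bHLH) gene Nhlh2. All probe sets annotated to 1 of these symbols were taken, which gave 22 probe sets for the 9 genes, of 18194 genes named on the array, and no probe set with several gene symbols named a member. A probe set is a group of short oligonucleotides that together report on a transcript. The data come from 2 Affymetrix arrays, 1 labelled KO (knockout) and 1 labelled WT (wild type), each of total RNA from mouse tissue labelled brain, of strain C57BL/6 at the embryonic stage E10.5. The labels do not say which gene was targeted, whether the deletion was conditional, or how many embryos gave each sample, and the sample titles speak of embryos where the tissue label says brain. With 1 array per group there is no replicate error and no test between the genotypes, and each difference compares these arrays alone.

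These factors act after a progenitor has left the cell cycle. Proneural bHLH proteins such as the neurogenins commit a progenitor to the neuronal fate, Ebf and Nhlh proteins are switched on in the newborn neuron as it leaves the ventricular zone, and LIM-homeodomain, POU and Onecut proteins then set which type of neuron it becomes. LIM-homeodomain proteins work in complexes held together by the Ldb adaptor proteins and limited by LMO proteins, and Ebf proteins bind DNA as dimers and can be held by the zinc finger proteins Zfp423 and Zfp521.

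The sequences upstream of Isl1 and Lhx1 are shown because these LIM-homeobox members gave unlike signals, Isl1 clearly measured and higher in KO, Lhx1 dim in both arrays. RefSeq promoter windows (build GRCm38.p6) were matched for 6 of the 9 genes, 7 windows in all, and the 250 bases before each start were searched on both strands. Capitals mark the E-box CANNTG, the letters to which bHLH proteins bind. The Isl1 stretch lies at chr13:116309689-116309938 and that of Lhx1 at chr11:84525535-84525784, both read on the minus strand.
Isl1: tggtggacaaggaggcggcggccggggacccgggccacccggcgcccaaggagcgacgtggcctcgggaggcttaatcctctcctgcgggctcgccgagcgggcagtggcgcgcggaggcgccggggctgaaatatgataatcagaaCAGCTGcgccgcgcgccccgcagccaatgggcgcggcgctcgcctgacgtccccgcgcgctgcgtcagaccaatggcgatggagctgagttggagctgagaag
Lhx1: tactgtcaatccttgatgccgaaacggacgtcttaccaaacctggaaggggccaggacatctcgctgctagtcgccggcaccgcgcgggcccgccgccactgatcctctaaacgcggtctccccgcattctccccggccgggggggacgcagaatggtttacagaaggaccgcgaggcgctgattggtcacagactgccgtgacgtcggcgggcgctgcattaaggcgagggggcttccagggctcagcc
The Isl1 stretch holds 1 E-box, CAGCTG, 103 bases before the start, and that of Lhx1 holds 0. An E-box was found in 4 of the 7 member windows and in 66.2% of all 32851 windows of the same length. The form CAGCTG, which is itself an E-box, was in 2 of the 7 and in 13.0% of all. The Onecut core ATCAAT was in 1 of the 7, that of Nhlh2, and in 6.72% of all. The homeodomain core TAATTA was in 0 of the 7 and in 4.84% of all, and the core CCCNNGGG of the Ebf palindrome in 1 of the 7, that of Ebf3, and in 11.8% of all. A match describes these letters alone.

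Differences are KO minus WT of log2(signal + 16) after both arrays were brought to a common median. The 16 added damps noise near background and understates changes of dim genes. A probe set counted as above the level filter where its signal in the higher array reached 41.6, the median level of all named genes. Of the 22 member probe sets, 17 passed, all of them in both arrays, with signals from 50.5 to 386. They cover 7 of the 9 genes, since no probe set of Lhx1 or Lhx5 passed. The other 5 lay between 0.64 and 33.5.

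**Figure D1:**
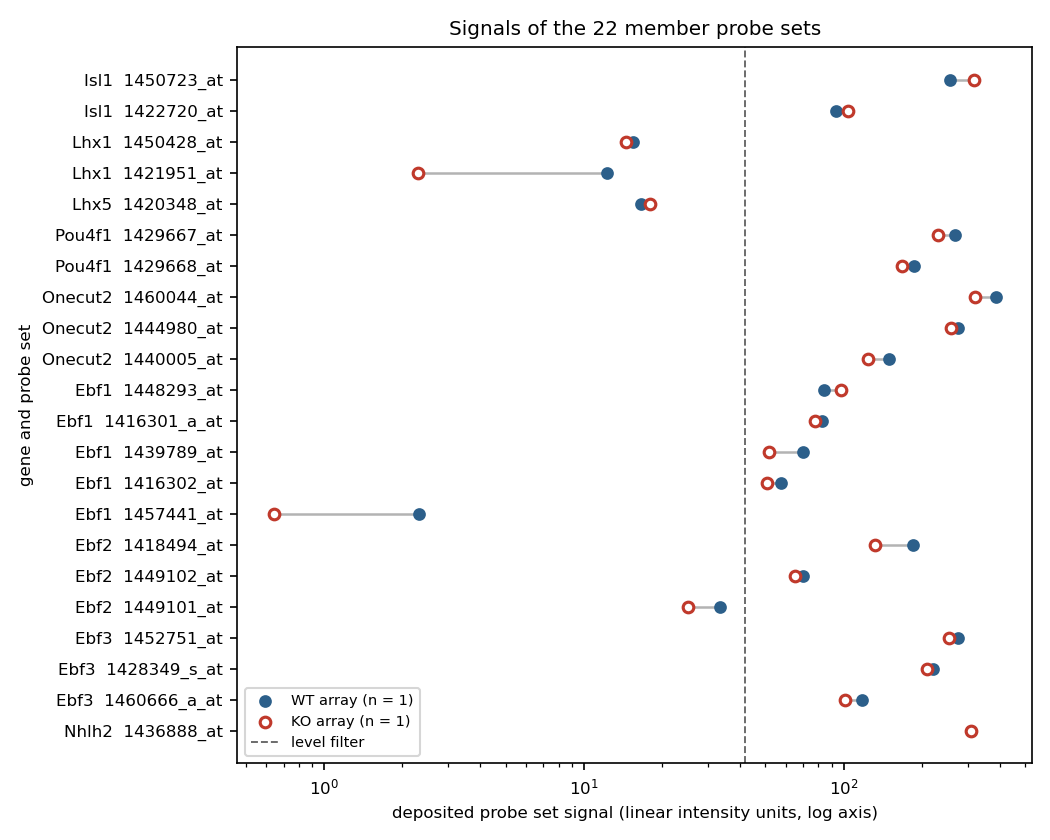
Deposited signal of each of the 22 member probe sets in the KO array (open red) and the WT array (filled blue), on a log axis, with the level filter dashed. Above the filter the points of a pair lie close together, with KO to the right of WT for both Isl1 probe sets and to the left for all probe sets of Pou4f1, Onecut2, Ebf2 and Ebf3, while the Nhlh2 points coincide.

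Among the 17 probe sets above the filter, 13 were lower and 4 higher in KO. Lower values made up 76.5% of them, against 51.0% of the 14821 probe sets above the filter that name 1 gene. The differences were small, from -0.44 to 0.29, with a median of -0.11 where that of all probe sets above the filter was -0.0030. None was 1.5-fold apart, where 1.49% of all were. At 1.2-fold, 3 of the 17 were apart (17.6%, against 12.1% of all), 1 higher (5.88%, against 6.98%) and 2 lower (11.8%, against 5.09%). These 3 were the brightest probe sets of Isl1 and Ebf2 and 1 of Ebf1. With each gene represented by its brightest probe set, 5 of the 9 members were lower, against 49.7% of all named genes, and the median was -0.040 against 0.0011. That median is the value of Lhx1, which lies under the filter. Over the 7 members above the filter, 4 were lower and the median was -0.11, against -0.00055 over all named genes above it. Probe sets of a gene share their transcript, so the 17 are not independent readings.

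The spread of all probe sets gives the scale for these values. Probe sets of 1 gene differed from each other with a pooled SD of 0.16 over 3628 genes and of 0.16 over the 6 members with at least 2 above the filter. That SD describes the probes and not the animals. When all probe sets above the filter were cut into 4 equal bins of level, 1 of the 17 member probe sets (5.88%) lay outside the central 95% of its bin, against 5.02% of all. It was the brightest of Ebf2. In 5 of the 6 members with several probe sets above the filter, all lay on the same side of 0, which held for 47.9% of 3628 genes.

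**Figure D2:**
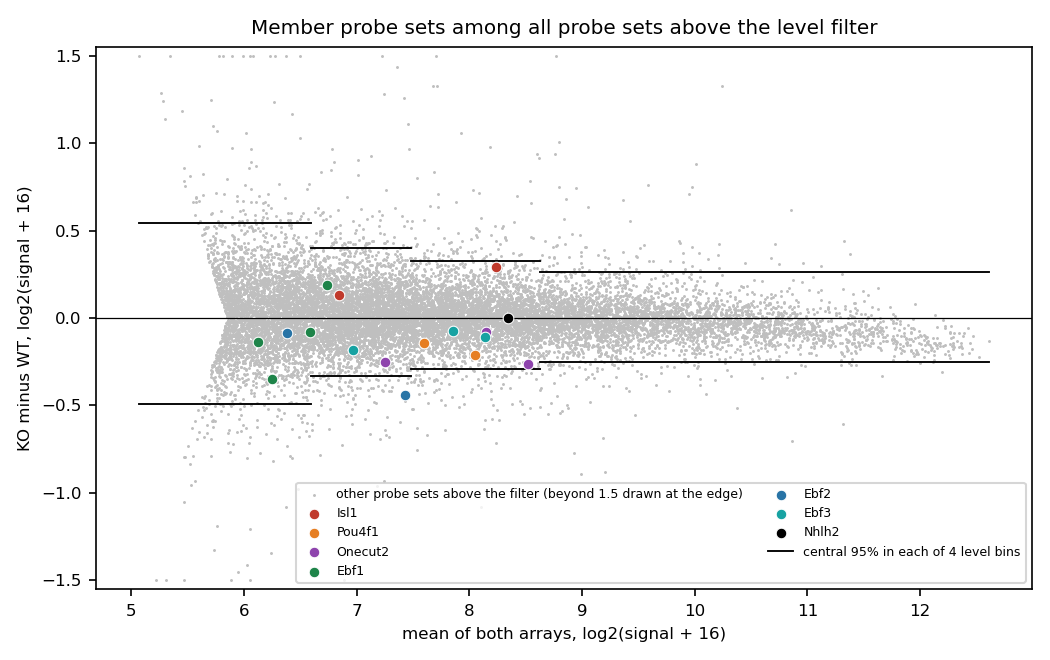
KO minus WT difference against the mean level of both arrays (each on the log2(signal + 16) scale) for all probe sets above the level filter in grey and the 17 member probe sets in colour. Black lines bound the central 95% in each of 4 equal bins of level, and 1 Ebf2 probe set lies outside them.

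Isl1, the LIM-homeodomain factor of motor neurons and cranial sensory neurons, was the member with the highest difference. Its brighter probe set (1450723_at) read 317 in KO and 256 in WT, a difference of 0.29 or 1.22-fold. The other (1422720_at) read 104 and 93.8, a difference of 0.13. Both were higher in KO, and both stayed within the central 95% of probe sets of their level. They were designed on the same source sequence, and they differ from each other by 0.16, about the SD between probe sets of a gene.

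Lhx1 and its close relative Lhx5, LIM-homeodomain factors of interneurons of the neural tube and of later Purkinje cells, were not measured above the filter. The brighter Lhx1 probe set (1450428_at) read 14.6 in KO and 15.4 in WT, a difference of -0.040. The other (1421951_at) read 2.30 and 12.3, a difference of -0.63 that is the farthest from 0 of the 22, but both signals are near background. Lhx5 (1420348_at) read 17.9 and 16.6, a difference of 0.057. At such signals a difference was not detectable, and its absence is not shown.

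Pou4f1, also known as Brn3a, a POU-homeodomain factor of sensory neurons and of neurons of the dorsal midbrain, was lower in KO on both probe sets. The brighter (1429667_at) read 231 in KO and 269 in WT, a difference of -0.21. The other (1429668_at) read 168 and 187, a difference of -0.14. They lie 0.069 apart. Isl1 and Pou4f1 occur together in cranial sensory neurons, and here their differences had opposite signs.

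Onecut2, a cut-homeodomain factor found in early motor neurons and other newborn neurons, was lower on all 3 probe sets, each designed on a different source sequence. The brightest (1460044_at) read 319 in KO and 386 in WT, a difference of -0.26. The second (1444980_at) read 260 and 276, a difference of -0.082. The third (1440005_at) read 124 and 150, a difference of -0.25. The mean over the 3 was -0.20 ± 0.10 (SD over probe sets of 1 array pair).

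The Ebf genes, which promote neuronal differentiation and the departure of new neurons from the ventricular zone, had 9 of their 11 probe sets above the filter, and 8 of the 9 were lower in KO. Their median was -0.11. Ebf2 had the lowest difference of the members above the filter. Its brightest probe set (1418494_at) read 132 in KO and 185 in WT, a difference of -0.44, or 1.36-fold lower. A second (1449102_at) read 64.9 and 69.8, a difference of -0.086, and the third (1449101_at), under the filter, read 25.2 and 33.5, a difference of -0.27. The annotation gives all 3 the same source sequence, so the Ebf2 value depends on the probe set read, with a mean of -0.26 over the pair above the filter.

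Ebf3 was lower by small amounts on all 3 of its probe sets. The brightest (1452751_at) read 255 in KO and 277 in WT (-0.11). The next (1428349_s_at) read 210 and 222 (-0.072), and the last (1460666_a_at) read 102 and 117 (-0.18). They lie 0.11 apart at most, less than the SD between probe sets of a gene.

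Ebf1 was the member whose probe sets disagreed in direction. The brightest (1448293_at) read 97.9 in KO and 83.9 in WT, a difference of 0.19. The other 3 above the filter were lower: 1439789_at read 51.4 and 69.8 (-0.35), 1416302_at read 50.5 and 57.2 (-0.14), and 1416301_a_at read 77.7 and 82.9 (-0.078). The remaining one (1457441_at) was near background at 0.64 and 2.33. The probe set that was higher carries the same source sequence in the annotation as 1416302_at and 1416301_a_at, so no direction was assigned to Ebf1. The mean over the 4 above the filter was -0.094 ± 0.22 (SD over probe sets).

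Nhlh2, a bHLH factor of newly postmitotic neurons and later of hypothalamic neurons, read 309 in KO and 308 in WT on its single probe set (1436888_at), a difference of 0.0019 that turned to -0.010 after quantile normalisation.

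**Figure D3:**
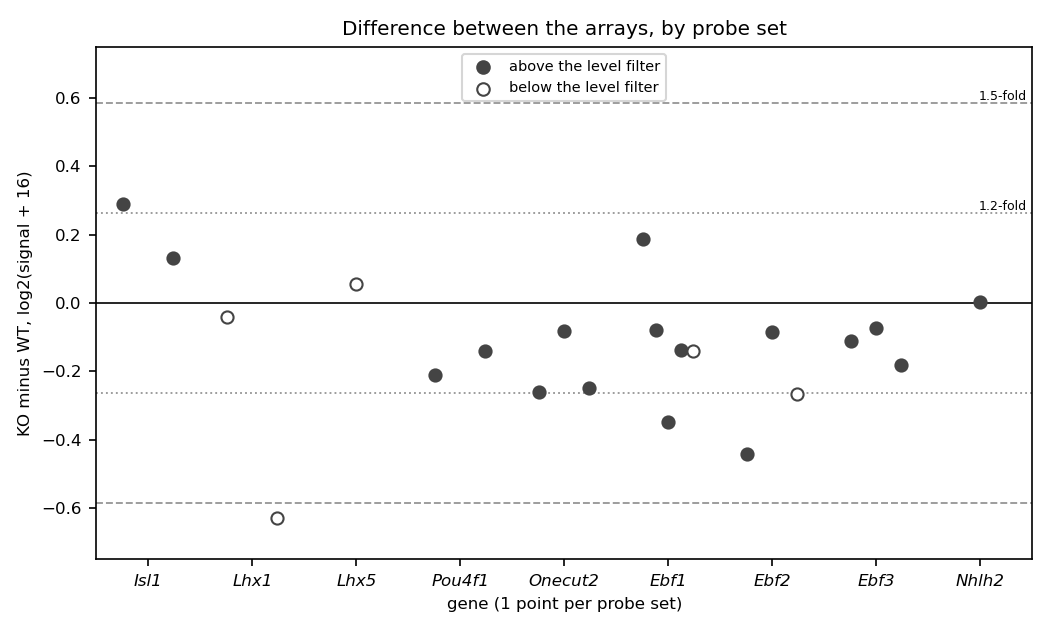
KO minus WT difference on the log2(signal + 16) scale, 1 point per probe set, filled above and open below the level filter, with dotted lines at 1.2-fold and dashed lines at 1.5-fold. No filled point reaches 1.5-fold, and Ebf1 has filled points on both sides of 0.

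Other genes of the same families gave few readings above the filter, and each gene here stands for its brightest probe set. Of 9 further LIM-homeobox genes, 5 were lower and 4 higher, with a median of -0.026, and 3 passed. Lhx2, a factor of forebrain and eye progenitors, read 59.4 in KO and 104 in WT (-0.67). Lhx9, found in neurons of the diencephalon and midbrain, read 144 and 171 (-0.23), and another of its probe sets gave -0.30. Lmx1b, a factor of the isthmus, midbrain floor and roof plate, read 67.8 and 43.2 (0.50). Its other probe set, under the filter at 1.03 and 4.46, gave -0.26. Isl2, the nearest relative of Isl1, was at 19.51 and 16.03, under the filter. Of 5 measured POU4, Onecut, Ebf and Nhlh relatives, 2 were lower and 3 higher, with a median of 0.013. Nhlh1, the nearest relative of Nhlh2, read 54.4 and 47.9 (0.14). Onecut1 read 17.9 and 42.7 (-0.79), but it passed the filter through the WT array alone and would not pass a filter at 45.1, and its second probe set was level at 26.67 and 26.71.

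The RNAs of the proteins with which the members work were measured above the filter in all 15 cases, 8 lower and 7 higher in KO. Their median was -0.033. The count was 9 lower and 6 higher after quantile normalisation. One stood apart. Zfp423, the zinc finger protein that binds Ebf proteins, read 523 in KO and 270 in WT on its single probe set, a difference of 0.91. It was the only 1 of the 15 past 1.5-fold, and the difference lay between 0.81 and 0.95 under the other pseudocounts, floor and scalings. Zfp521, its closest relative, read 507 and 470 (0.10). Ldb2, a LIM adaptor, read 58.1 and 44.0 (0.30), but another of its probe sets gave -0.047. Lmo1 and Lmo4, LIM-only proteins that compete for the adaptors, read 119 against 144 (-0.26) and 169 against 185 (-0.12).

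Other regulators of early neuron identity showed no common direction. Of 20 measured, 11 were lower and 9 higher, with a median of -0.020, and 6 passed the filter. Barhl2, a homeodomain factor of diencephalic and dorsal interneurons, read 36.2 in KO and 64.6 in WT (-0.63) on its single probe set and passed through the WT array alone. Nr4a2, a nuclear receptor of midbrain dopamine neurons, read 99.8 and 108 (-0.10). Tal1, a bHLH factor of blood cells and of some interneurons, read 76.8 and 63.8 (0.22), and Tfap2a, a factor of neural crest and dorsal neurons, 73.5 and 62.6 (0.19).

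Upstream regulators of neuronal commitment went both ways. Of 20 measured, 13 were higher and 7 lower, where 49.7% of all named genes were lower, and the median was 0.10. Dim genes carried that median, which was 0.0035 with a floor of 16, and of the 11 that passed the filter 6 were higher and 5 lower. Neurod4 and Dll3, a proneural factor and a Notch ligand of newborn neurons, read 175 against 139 (0.30) and 320 against 257 (0.30), but another Neurod4 probe set gave -0.11. Neurog1, the neurogenin of cranial sensory precursors, read 337 against 395 (-0.22), and Myt1, a zinc finger factor of new neurons, 59.7 against 85.7 (-0.43). The pan-neuronal list, some genes of which are limited to certain neurons, had 20 of 24 values below 0 and a median of -0.12. All 24 were above the filter, where 51.0% of all probe sets that name 1 gene were lower. By the same rule of the brightest probe set, the median of the 9 members was -0.040, and that of the 7 above the filter -0.11. Neural progenitor genes were lower in 9 of 12, with a median of -0.11, so values below 0 were not limited to neuronal genes. The progenitor median was -0.062 after quantile normalisation and -0.078 with loess, where the pan-neuronal median was -0.132 and -0.125. In whole tissue, fewer neurons and less RNA per neuron cannot be told apart.

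**Figure D4:**
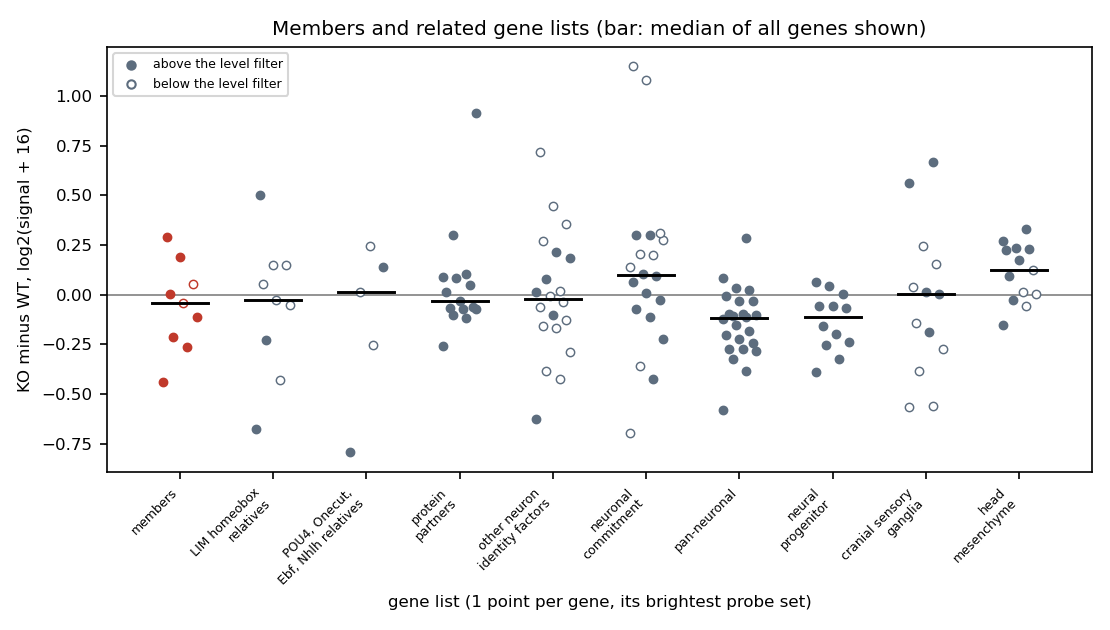
KO minus WT difference on the log2(signal + 16) scale of the brightest probe set of each gene, for the members (red) and related lists (grey-blue), filled above and open below the level filter, with a bar at the median of all genes shown. Zfp423 is the highest point among the partners at 0.91, and the members spread from -0.44 to 0.29 around 0.

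The tissue label was checked on marker genes. All 12 neural progenitor genes passed the filter, as did 24 of 24 measured pan-neuronal genes. Of heart and pharyngeal genes 0 of 12 passed, and of posterior Hox genes 0 of 12. Markers of other tissues near the brain did pass: 9 of 13 for head mesenchyme, 5 of 13 for cranial sensory ganglia and 5 of 11 for surface ectoderm and gut. The 5 for ganglia include Fabp7, which is also among the 12 progenitor genes. Over all named genes, 9297 of 18194 passed. The check therefore does not show that the samples held brain alone. The arrays differed in some regional brain genes. Of 11 measured, 9 were higher and 2 lower in KO, where 49.7% of all named genes were lower, and the median was 0.18. With a floor of 16, 4 were higher and 2 lower, and the median was 0.0. Of the 4 that passed the filter, 2 were higher and 2 lower. En2 and En1, homeodomain factors of the midbrain and anterior hindbrain, read 1291 against 761 (0.75) and 61.4 against 20.1 (1.10, passing through the KO array alone), and Otx2 and Otx1, factors of forebrain and midbrain, read 1820 against 2203 (-0.27) and 142 against 164 (-0.19). The part of regional makeup in the member values was not tested. Some members are also expressed outside the brain. For cranial sensory ganglia, where Isl1 and Pou4f1 are expressed, 7 of 13 measured markers were higher in KO and 6 lower (6 and 7 after quantile normalisation), with summed signals of 2859 in KO and 2827 in WT, of which Fabp7 alone, also a progenitor gene, gave 2485 and 2474. Eya1 (70.6 against 38.5, 0.67, passing through the KO array alone) and Six4 (86.9 against 53.6, 0.56) were higher, though the other Eya1 probe sets, under the filter, gave 0.046 and 0.12. Other Six4 probe sets gave 0.41 and 0.13 above the filter and -0.057 under it. Ntrk2 (72.9 against 85.1, -0.19) was lower, as were Eya2 (-0.56), Runx3 (-0.56) and Ntrk3 (-0.38) at signals under the filter, and the ganglion markers Prph and Sox10 were near background in both arrays, at 4.85 and 7.02 and at 1.75 and 5.47. For head mesenchyme, where Ebf genes are also expressed, 10 of 13 markers were higher in KO and 3 lower, where 49.7% of all named genes were lower. The median was 0.12 and the summed signals were 3126 and 3007. Msx1 (428 against 337, 0.33) and Twist1 (102 against 82.0, 0.27) were the highest above the filter. Col3a1, the brightest marker (1398 against 1554, -0.15), and Foxc1 (54.8 against 56.0, -0.026) were lower. For heart and pharyngeal mesoderm, another site of Isl1, the summed signals were 75.8 and 66.2. For surface ectoderm and gut, 7 of 11 were higher, with summed signals of 286 and 249. The part of these tissues in the member values was not tested. The arrays also differed in sex-linked transcripts, with Xist at 2023 in KO and 5.19 in WT and the Y-linked Eif2s3y at 0.27 and 254, so the genotypes and the sex of the embryos cannot be told apart for any value here.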

How the data were processed

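Total RNA of 2 samples, 1 per genotype by their titles, was measured on 1 array each. The authors deposited linear probe set intensity values, which come from Affymetrix Expression Console per the submitters' processing notes. Its version and its summary method are not given in sources used here. The mean without the lowest and highest 2% was 100.0 in each array, and the medians were 13.18 and 13.17. The array count limits the precision. Both arrays were scaled to a common median and taken as log2(intensity + 16). Gene symbols came from the platform annotation (34958 probe sets with 1 symbol, 932 with several, 9211 unnamed here), and those with several or none named no gene. The brightest probe set by mean represented a gene in lists. The level filter was first the median over named genes of the higher array's value (45.1), and was changed, after values were seen, to the median of the mean level (41.6), to follow the earlier processing of these data; the closing section gives both.

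The 9 members and all gene lists were chosen with earlier results of these data known. Text names all members and, of related lists, at most the 2 highest and 2 lowest above the filter and any past 1.5-fold. Further genes named (Isl2, Zfp521, Prph, Sox10, Fabp7, Eya2, Runx3, Ntrk3, Olig3, Atoh1, Ptf1a) were chosen for their relation to the members or as markers, after their values were seen. Genes were not ranked by likeness of pattern, since 2 arrays give each gene 1 difference. Alternatives changed the pseudocount (1, 64), a floor (16), the scaling (as deposited, quantile, loess with span 0.3), the probe set rule, the filter and the fold. The computation was tested on simulated data. Python 3.11.15, numpy 2.4.6, pandas 2.3.3, statsmodels 0.14.6 and matplotlib 3.10.9 were used.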

Additional observations from a re-analysis of the deposited data

How the results depend on the processing

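No paired analysis was possible because there was 1 array in each group, so leaving out a replicate was not possible either. The median over the members lay between -0.14 (median over all probe sets of a gene) and 0.0 (floor of 16, which sets the dim Lhx1 to no difference) across 10 alternatives, and 4 to 6 members were lower in KO. No member probe set was 1.5-fold apart except the dim one of Lhx1, which gave 1 without the filter. At 1.2-fold 3 were apart, counted at the main pseudocount and scaling only. The brightest Onecut2 probe set, at -0.261, fell just short of that limit (0.263 on the log2 scale). It was past the limit with a pseudocount of 1 (-0.272), the floor (-0.273) and quantile normalisation (-0.265). In each of these settings that value was also the median of the 3 Onecut2 probe sets, so another of them was past the limit too. With a pseudocount of 64 the brightest Isl1 probe set, at 0.251, fell short of it. The count at 1.2-fold therefore depends on the setting. Of 79 member values under an alternative, 71 moved by less than the SD between probe sets. The 8 others belong to Ebf1, Ebf2 and Lhx1, all under another rule for several probe sets. Ebf1 changed sign under all 3 such rules, Ebf2 moved to between -0.27 and -0.26, and Lhx1 to -0.34. Nhlh2 also changed sign, after quantile normalisation. Over all genes, the 221 probe sets past 1.5-fold became 387 at a pseudocount of 1, 80 at one of 64, 402 with the floor, 520 without a filter, 57 at the 75th percentile filter, 1788 at 1.2-fold and 50 at 2-fold. With the level filter at 45.1, the median of the higher array, which was added as an alternative after seeing the data, 17 member probe sets still passed and 0 were 1.5-fold apart. Over all genes, 199 of 14376 were, and of the 98 listed genes above 41.6, Onecut1 and Krt18 did not pass. Low signal limits Lhx1 and Lhx5.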

Other observations

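Among the regulators of neuronal commitment, the largest differences were in genes under the level filter. The highest and the lowest of them were singled out here after their values were seen. Olig3, a bHLH factor of dorsal progenitors of the hindbrain and spinal cord, read 40.3 in KO and 9.35 in WT (1.15). Atoh1, the proneural factor of the rhombic lip, read 38.3 and 9.61 (1.08). Ptf1a, the lowest of the list, went the other way, at 0.87 in KO and 11.3 in WT (-0.69), with both signals near background. Olig3 and Atoh1 each have 1 probe set named here, and no second reading was available for them.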
